A study of Mus musculus with 10 samples.

Results

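Igkv2-137 is a variable (V) segment of the mouse immunoglobulin kappa light chain locus (Igk), and of the 112 V segments of the deposited table that could be placed on chromosome 6 it lay farthest from the J segments. Its lines in the deposited repertoire table were chosen by the V call, IGKV2-137 with the allele ignored, in all 10 samples. These lines held 5070 of 161780 counts, or 3.13%, among 114 V segments, and 705 distinct clonotypes, a clonotype being a CDR3 nucleotide sequence together with its V and J call. The segment was also picked for its J use, namely few joins to J1 and a J5 share that was nearly equal in both genotypes, so all values of its J use below are a description, carry no test and support nothing else.

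The samples were small pre-B cells of mouse bone marrow, purified by flow cytometry directly from C57Bl6 mice 6 to 12 weeks old, and the kappa transcripts were amplified from RNA and read in pairs on a MiSeq. There were 5 WT samples and 5 samples labelled rsCBE, a mutant that the series' design text writes with a delta and that the labels do not spell out; the series' title concerns CTCF-mediated chromatin topology and receptor editing. The table holds kappa joins alone, so markers of the cell stage could not be checked. Another genotype of the design text was not analysed here. Replicates 1 and 2 of each genotype were deposited as 1 library, and replicates 3, 4 and 5 as 2 parts that were added up here. The labels do not say that replicates came from separate mice, so p-values measure the spread between these samples, which may be technical.

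In a developing B cell the kappa locus is assembled by joining 1 of many V segments to 1 of the J segments, which lie together at the other end of the locus. The join forms CDR3, the most variable loop of the light chain, and a join keeps the reading frame or loses it. A V segment upstream of a first join can later join a J segment further downstream, which replaces the first join. This is receptor editing, and joins to J5, the last J segment, leave no further J segment to use.

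Igkv2-137 spans chr6:67555497-67556216 on the forward strand of GRCm38 (GENCODE M21 annotation). Its first exon covers 67555497 to 67555684, of which 67555497 to 67555635 is untranslated, and its second exon covers 67555904 to 67556216. Its 3′ end was 3166 kb from the start of J1 at 70722562. J2 starts at 70722916, J3 at 70723223, J4 at 70723548 and J5 at 70723886. The germline sequences that meet in the joins are shown first because the recurrent CDR3s below are read from them. For the V segment the last 23 bases are given, which begin CDR3, with its last 3 bases in capitals. For each J segment the capitals mark the bases that can enter CDR3. J2 and J5 are annotated with 43 and 42 bases, of which 39 and 38 are printed.
Igkv2-137 end: atgcaacatctagaatatccTTT
J1: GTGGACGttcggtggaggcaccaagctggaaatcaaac
J2: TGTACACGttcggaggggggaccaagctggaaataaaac
J3: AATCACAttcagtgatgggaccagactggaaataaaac
J4: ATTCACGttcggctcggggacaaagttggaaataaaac
J5: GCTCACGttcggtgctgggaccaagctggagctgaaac
Of the 112 V segments with a germline transcript in GENCODE M21, only 1, Igkv2-137 itself, ended in TTT.

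Igkv2-137 was an abundant segment in every sample. It ranked between 2nd and 12th among the V segments of a sample, and 7th by mean share. Its share was 2.48, 3.65, 1.98, 1.83 and 2.52% of counts in WT replicates 1 to 5 and 4.69, 4.24, 2.30, 1.93 and 3.02% in rsCBE replicates 1 to 5. The genotypes overlapped, with 2 rsCBE samples above all WT samples and 2 below the median WT sample of 2.48%, while rsCBE was higher in each of the 5 pairs of the same replicate number. The mean was 2.49% ± 0.713 (SD, n = 5) in WT and 3.24% ± 1.20 (SD, n = 5) in rsCBE, a log2 fold change of 0.37 ± 0.28 (SE) which did not pass edgeR's quasi-likelihood test (Benjamini-Hochberg adjusted p = 0.973 over 98 V segments). The background share of V segments called in that comparison was 0%, that is, 0 of 98 with an adjusted p under 0.05, 7 of them with an unadjusted p under 0.05. DESeq2 called 0 as well. Counts of Igkv2-137 per sample ran from 57 in WT replicate 4 to 1130 in rsCBE replicate 1, and total counts from 3109 to 24083.

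**Figure D1:**
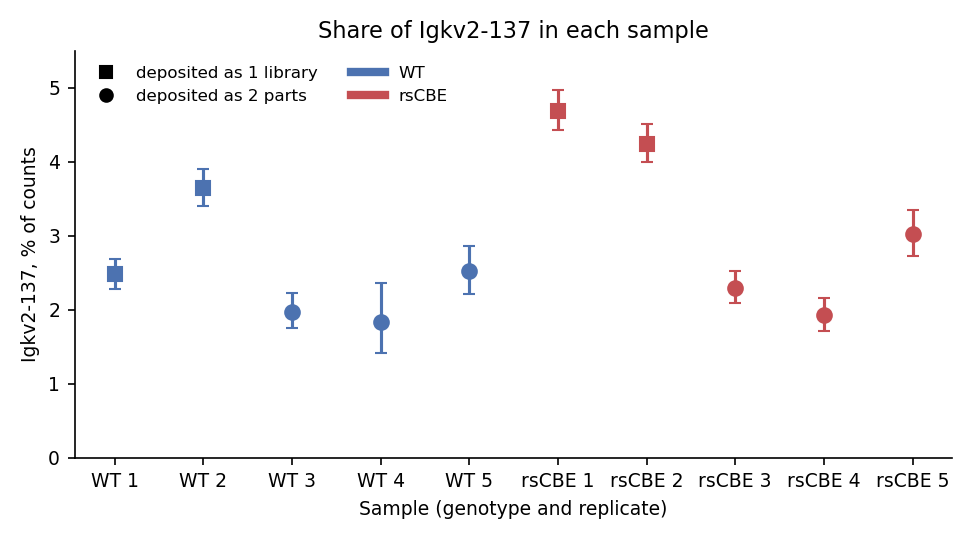
Share of Igkv2-137 in each sample (y axis, % of all counts of the sample) by genotype and replicate (x axis); bars are Wilson 95% intervals, which cover counting error only. The lowest sample was WT replicate 4 at 1.83% and the highest rsCBE replicate 1 at 4.69%, and of the 4 samples deposited as 1 library (squares) only WT replicate 1 lay below 3%.

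The share differed between the 2 forms of deposition by more than the spread between samples. It was 3.77% ± 0.959 (SD, n = 4) in samples deposited as 1 library and 2.26% ± 0.452 (SD, n = 6) in those deposited as 2 parts, with 1 overlap, since WT replicate 1 at 2.48% lay below WT replicate 5 and rsCBE replicate 5. With genotype in the model, the log2 fold change of 2 parts against 1 library was -0.71 ± 0.15 (SE), with an adjusted p of 0.000514 by edgeR. Many V segments differed in this way: the background share called was 57.0%, with 57 of 100 V segments passing, 31 higher and 26 lower in the samples deposited as 2 parts. What the 2 forms stand for is not given in the labels. Total counts moved with the form, at 21392 to 24083 in samples deposited as 1 library and 3109 to 18263 in those deposited as 2 parts, and the part of depth in the difference was not tested.

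Within the forms, the genotypes differed by a log2 fold change of 0.55 in the samples deposited as 1 library (adjusted p = 0.0730 by edgeR) and 0.18 in those deposited as 2 parts (adjusted p = 0.958 by edgeR). The test of the difference between those values gave -0.37 ± 0.29 (SE), with an adjusted p of 0.972 by edgeR. With the form as a term, the genotype difference of Igkv2-137 was 0.34 (adjusted p = 0.229 by edgeR), and 2 of 100 V segments were called. With the replicate number as a block it was 0.35 (adjusted p = 0.224 by edgeR), and 1 of 103 was called. Igkv2-137 was not among the called segments in either fit. Its unadjusted p by edgeR was 0.0344 with the form and 0.0195 with the block, against 0.215 with genotype alone. Of all V segments, 17 of 100 and 16 of 103 had an unadjusted p under 0.05 in these 2 fits. In each of the 6 samples with 2 parts, Igkv2-137 took a larger share of part a, 1.92 to 3.86% of counts, than of part b, 1.33 to 2.02%.

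By number in the name, the nearest neighbours of Igkv2-137 are Igkv1-135, Igkv1-133, Igkv1-132, Igkv1-131, Igkv14-130 and Igkv9-129. Only Igkv1-135 was of similar abundance, at 4.30% ± 2.84 (SD, n = 5) in WT and 4.15% ± 2.49 (SD, n = 5) in rsCBE. It went the other way between the forms of deposition, with 1.34% in samples deposited as 1 library and 6.15% in those deposited as 2 parts. The other 5 neighbours had mean shares of 0.0118 to 0.533% in WT and 0.0123 to 0.436% in rsCBE. The other members of the Igkv2 family, Igkv2-109, Igkv2-112 and the pseudogene Igkv2-116, also lay below Igkv2-137, with 0.202 to 0.681% in WT and 0.226 to 0.900% in rsCBE. Over the 10 samples, the shares most like that of Igkv2-137 in rank were those of Igkv8-27 (Spearman's rho 0.83), Igkv5-43 (0.77) and Igkv6-17 (0.76), of 65 V segments with at least 10 counts in every sample. The points share their libraries and the split by form of deposition. Over the 6 samples deposited as 2 parts the values were 0.71, 0.49 and 0.54.

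Igkv2-137 joined mainly J2, then J5 and J4, and seldom J1. The J1 share of its counts was 3.19, 3.59, 0.733, 0 and 2.60% in WT replicates 1 to 5 and 2.04, 1.92, 2.86, 2.19 and 0.284% in rsCBE replicates 1 to 5. The value of 0 in WT replicate 4 is 0 of 57 counts, which allows a share of up to 5.26%. In all other V segments of the same samples, summed, J1 held 22.4 to 34.5% of counts, so the ranges did not overlap. Among the 89 V segments with at least 200 counts, Igkv2-137 had the third lowest mean J1 share, against a median of 22.2% and a range of 1.49 to 60.2% for the other 88. A J1 share under 10% was not particular to it, since 19 of those 88 had one.

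J2 was its most used J segment in 9 of 10 samples, with J5 ahead in WT replicate 4. It held 50.2, 49.7, 44.0, 33.3 and 48.5% of Igkv2-137 counts in WT replicates 1 to 5 and 50.4, 48.8, 44.3, 46.0 and 55.1% in rsCBE replicates 1 to 5, against 19.0 to 28.4% in all other V segments. WT replicate 4, with the fewest counts, was the lowest. This was the second highest mean J2 share of the 89 segments, below the 48.8% of Igkv6-13 and against a median of 20.7% for the others. J4 held 18.2 to 26.3% of Igkv2-137 counts, 17th highest of the 89, against 13.7 to 17.6% in other V segments. No count of Igkv2-137 was joined to J3, which held 0.0112 to 0.262% of the counts of other V segments. This was not particular to it, since most of the 89 segments had a mean J3 share of 0.

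**Figure D2:**
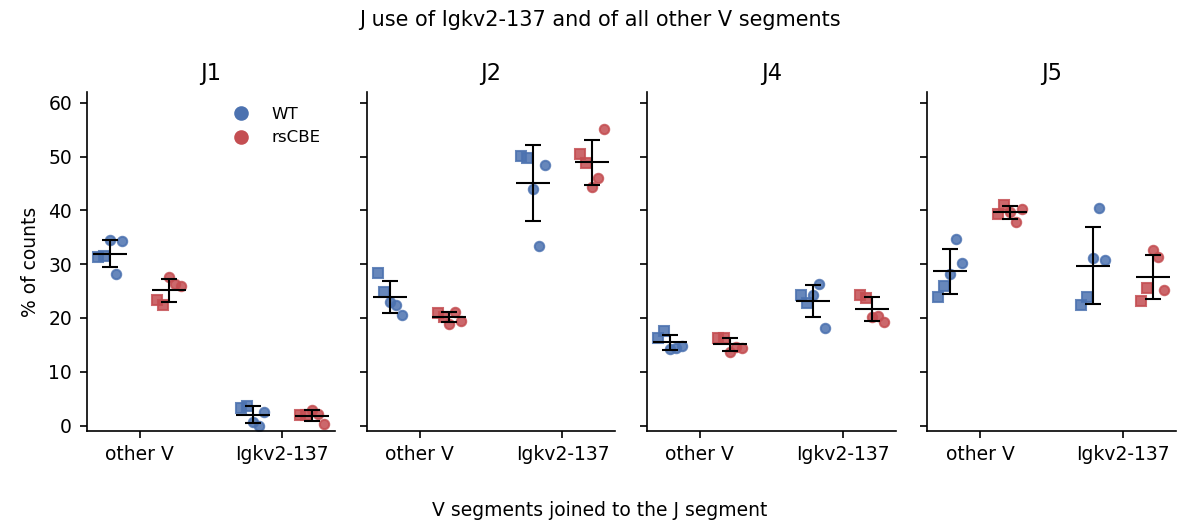
J1, J2, J4 and J5 as a share of counts (y axis, %) for all other V segments and for Igkv2-137 (x axis), WT in blue and rsCBE in red, squares for samples deposited as 1 library and circles for 2 parts; black lines are mean ± SD (n = 5). Igkv2-137 had J1 at 0 to 3.59% where other V segments had 22.4 to 34.5%, and its J5 points of both genotypes overlapped.

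The J5 share of Igkv2-137 was 22.3, 23.8, 31.1, 40.4 and 30.7% in WT replicates 1 to 5 and 23.2, 25.5, 32.6, 31.4 and 25.3% in rsCBE replicates 1 to 5. The genotypes overlapped throughout, with means of 29.7% ± 7.16 (SD, n = 5) and 27.6% ± 4.15 (SD, n = 5). In all other V segments of these samples J5 held 28.6% ± 4.18 (SD, n = 5) in WT and 39.6% ± 1.17 (SD, n = 5) in rsCBE, with no overlap. The difference of rsCBE minus WT was -2.09 percentage points for Igkv2-137, the sixth lowest of the 89 segments; the median of the other 88 was 10.3 points, and 81 of them had a difference above 0. WT replicate 4 weighs on this value: without it the difference was 0.58 points, and with the counts of each genotype summed it was 0.32 points. Within the forms of deposition it was 1.24 points in the samples deposited as 1 library and -4.31 points in those deposited as 2 parts, and with each clonotype counted once 2.25 points, so its direction is not settled. J5 was lower in all 4 samples deposited as 1 library, at 22.3 to 25.5%, than in 5 of the 6 deposited as 2 parts, at 30.7 to 40.4%, while rsCBE replicate 5 had 25.3%.

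For the other J segments of Igkv2-137, the means of WT and rsCBE (± SD, n = 5) were 2.02% ± 1.57 and 1.86% ± 0.951 for J1, 45.1% ± 7.05 and 48.9% ± 4.21 for J2, and 23.2% ± 3.05 and 21.6% ± 2.27 for J4. Each difference was below the SD of both groups, and all 3 pairs of groups overlapped. The differences of rsCBE minus WT were -0.16, 3.79 and -1.54 percentage points, and without WT replicate 4 they were -0.67, 0.84 and -0.75 points.

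Measured over the 5 J segments, the J profile of Igkv2-137 lay nearest to those of Igkv1-99, Igkv6-13 and Igkv17-121. The total variation distance, which is the share of joins that would have to move to another J segment to make both profiles equal, was 9.16, 10.6 and 16.9% of joins. Igkv1-99 and Igkv17-121 lie 2180 and 2685 kb from J1, and Igkv6-13 lies at 265 kb, so the nearest profiles came from segments far from and close to the J segments. These distances are between means over samples, and the genotypes differed: beside the 29.7 and 27.6% of Igkv2-137, the J5 share was 7.11% in WT and 36.9% in rsCBE for Igkv1-99, 16.1 and 52.5% for Igkv6-13, and 36.0 and 46.1% for Igkv17-121. The nearest neighbour in the locus, Igkv1-135, had the highest J1 share of the 89 segments, 60.2%, and a J5 share of 10.1% in WT and 15.4% in rsCBE. Within the Igkv2 family, Igkv2-112 also had a low J1 share, 4.42%, but joined mainly J5 (50.4%) and J4 (27.9%), while Igkv2-109 and Igkv2-116 had J1 shares of 35.3 and 21.9%.

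**Figure D3:**
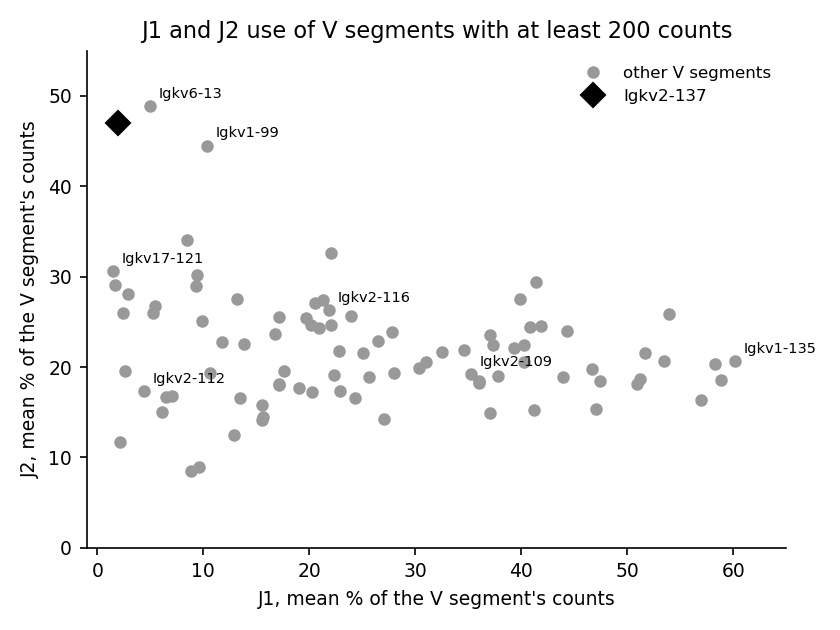
Mean J1 share (x axis, % of the V segment's counts) and mean J2 share (y axis, %) over the samples that held the segment, 1 point for each of the 89 V segments with at least 200 counts. Igkv2-137 (diamond) lies in the upper left corner with 1.94% J1 and 47.0% J2, near Igkv6-13 and Igkv1-99, and Igkv1-135 lies at the far right with 60.2% J1.

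The low J1 share was present in joins that kept the frame and in joins that did not. Over all samples, J1 held 1.41% of the 3624 in-frame counts and 4.43% of the 1446 counts that were not in-frame, where in-frame means a CDR3 length that is a multiple of 3 with no stop codon. J2 held 51.3 and 43.0%, J4 21.9 and 25.2%, and J5 25.4 and 27.4%. Of the J1 joins 44.3% were in-frame, against 74.9% of the J2, 68.5% of the J4 and 69.9% of the J5 joins. The J1 value rests on 115 counts from 42 distinct clonotypes.

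The in-frame share of Igkv2-137 was 76.8, 76.9, 74.0, 61.4 and 75.8% in WT replicates 1 to 5 and 72.6, 67.8, 64.0, 66.8 and 67.0% in rsCBE replicates 1 to 5. All WT samples but replicate 4 lay above all rsCBE samples. The means were 73.0% ± 6.57 (SD, n = 5) and 67.7% ± 3.09 (SD, n = 5), a difference of -5.31 percentage points (two-sided exact permutation test, p = 0.151, adjusted over 4 tests 0.201). Without WT replicate 4 the difference was -8.20 points (exact permutation test, adjusted p = 0.0212), so the call turns on that sample of 57 counts. With each clonotype counted once it was -10.4 points (exact permutation test, adjusted p = 0.127). All other V segments together went the same way, with 70.6% ± 3.97 (SD, n = 5) in WT and 65.2% ± 3.21 (SD, n = 5) in rsCBE.

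Set against all other V segments of the same sample, the in-frame share of Igkv2-137 was higher in 9 of 10 samples, by 2.44 points on average (two-sided exact sign-flip permutation test, p = 0.0488, adjusted 0.0977). The exception was WT replicate 4, where it was 4.19 points lower (difference -4.19). Without that sample the mean difference was 3.18 points (exact permutation test, adjusted p = 0.00781), and with each clonotype counted once it turned to -1.24 points (exact permutation test, adjusted p = 0.561). Among the 89 segments Igkv2-137 was 38th by in-frame share.

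In-frame CDR3s of Igkv2-137 were longer than those of the other V segments in each of the 10 samples. Their mean length was 27.03, 27.08, 27.18, 27.51 and 27 bases in WT replicates 1 to 5 and 27.03, 27.06, 26.83, 27.20 and 27.03 bases in rsCBE replicates 1 to 5, against 26.61 to 26.78 bases for all other V segments. The mean difference was 0.400 bases (two-sided exact sign-flip permutation test, p = 0.00195, the smallest that 10 samples allow, adjusted 0.00781). The test took no account of J use, for which the segment was picked. J2 can give 8 bases to CDR3 and the other J segments 7, and the part of J use in the difference was not tested. The length was not ranked among single V segments. With the 2 samples of each replicate number kept as a block, the difference was 0.400 bases and the adjusted p 0.25, since 5 blocks cannot go below an exact p of 0.0625. Within the forms it was 0.371 bases in the samples deposited as 1 library and 0.419 bases in those deposited as 2 parts (exact permutation tests, adjusted p = 0.25 and 0.125). Between the genotypes the length differed by -0.13 bases, rsCBE minus WT (exact permutation test, p = 0.302, adjusted 0.302), and by -0.045 bases without WT replicate 4 (exact permutation test, adjusted p = 0.603).

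**Figure D4:**
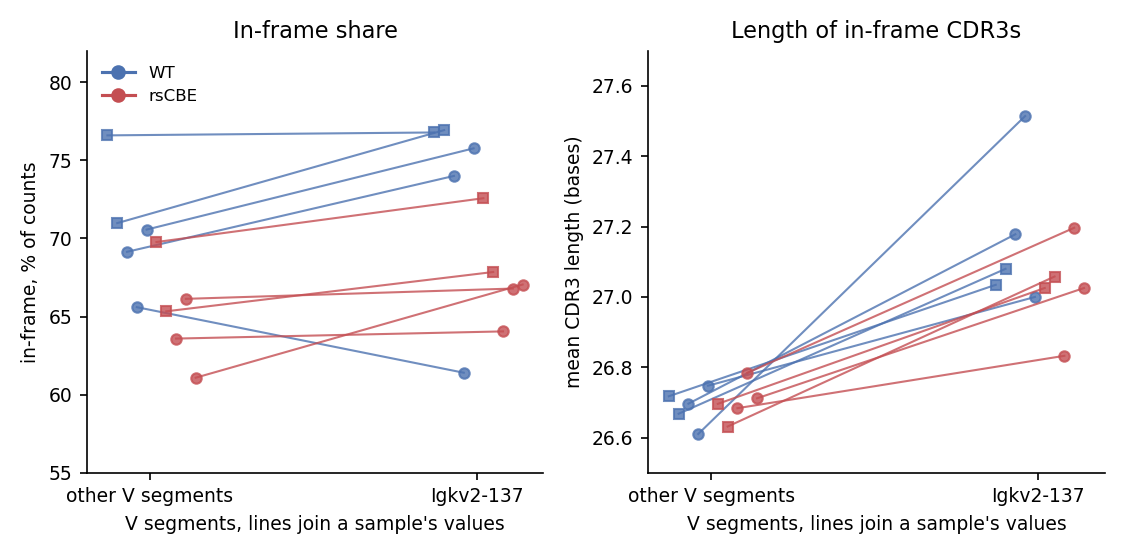
In-frame share (left, % of counts) and mean length of in-frame CDR3s (right, bases) of all other V segments and of Igkv2-137; each line is a sample, WT in blue and rsCBE in red, squares for 1 library and circles for 2 parts, and neither y axis starts at 0. The in-frame share was higher for Igkv2-137 in 9 of 10 samples and the length in 10 of 10.

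The CDR3s of Igkv2-137 were built mostly from germline bases, cut back at a few positions. The V segment kept 20 of its 23 CDR3 bases, losing TTT, in 43.6% of counts and all 23 bases in 24.6%. In 52.0% of counts the V and J bases met directly, in 27.8% at least 1 base at the join could come from either segment, and in 11.4% the join held bases that fitted neither. The remaining 8.88% of counts differed from the germline within its first 15 bases, and their joins were not read. Bases that fit both segments were given to V, and such bases were present in 17.0% of the J2, 36.1% of the J5, 40.1% of the J4 and 40.9% of the J1 joins, so the V ends of different J segments cannot be compared directly. Read in this way, the V end had lost TTT in 51.5% of the J2, 38.9% of the J5, 34.3% of the J4 and 19.1% of the J1 joins, and was complete in 18.1, 29.3, 33.6 and 20.9%. Of all counts, 66.2% had a CDR3 of 27 bases.

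By sample, joins with 20 V bases made up between 22.8 and 45.1% of the WT counts and between 40.7 and 51.4% of the rsCBE counts, and joins with all 23 bases between 19.8 and 36.8% and between 18.8 and 26.4%. WT replicate 4 had the lowest share with 20 bases and the highest with 23. Joins with bases that fitted neither segment ranged from 7.69 to 12.3% (WT) and from 8.52 to 14.6% (rsCBE), and the genotypes overlapped in all 3 measures.

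A few CDR3s recurred across the samples, and they are printed here because they show how the abundant joins were formed. The clonotypes are numbered by the number of samples that held them and then by counts; capitals mark bases that come from the J segment and not from the V segment, and bases that fit both are in lower case.
Clonotype 1, joined to J2: atgcaacatctagaatatccGTACACG
Clonotype 2, joined to J4: atgcaacatctagaatatccATTCACG
Clonotypes 3, 4 and 5, joined to J5, J4 and J2: atgcaacatctagaatatcctttCACG
Clonotype 6, joined to J5: atgcaacatctagaatatccGCTCACG
Clonotype 7, joined to J2: atgcaacatctagaatatccttACACG
Clonotype 8, joined to J2: atgcaacatctagaatatcctACACG
Clonotype 9, joined to J5: atgcaacatctagaatatcctCACG
Clonotype 10, joined to J5: atgcaacatctagaatatcctGCTCACG
Clonotypes 1 to 7 are in-frame with 27 bases, and clonotypes 8, 9 and 10 are not in-frame, with 26, 25 and 28 bases.

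Clonotype 1 was the commonest in each genotype. It held 1094 counts, 21.6% of all counts of Igkv2-137, and was 22.9, 21.3, 19.8, 14.0 and 26.0% of them in WT replicates 1 to 5 and 22.04, 19.9, 20, 17.2 and 28.4% in rsCBE replicates 1 to 5. The genotypes overlapped, with means of 20.8% ± 4.42 (SD, n = 5) and 21.5% ± 4.23 (SD, n = 5). It joins the V segment without TTT to J2 without its first base. Clonotypes 2 and 6 join the same V end to the complete J4 and J5. Clonotype 2 held 0.433 to 8.42% of counts in WT and 4.76 to 8.24% in rsCBE. Clonotype 6, with 403 counts, was found in 9 samples, at 8.46 to 13.2% in the WT samples that held it and 6.25 to 9.52% in rsCBE. It was not among the 57 counts of WT replicate 4, a depth that allows a share of up to 5.26%.

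The same CDR3 was formed with 3 different J segments. Clonotypes 3, 4 and 5 have 1 nucleotide sequence, with the complete V end and CACG, the bases that J2, J4 and J5 have in common at that point, and differ only in the J call. They held 330 counts with J5, 319 with J4 and 299 with J2, together 948 counts or 18.7% of Igkv2-137, and each of the 3 was found in all 10 samples. In all, 46 of 638 CDR3 sequences of Igkv2-137 were found with at least 2 J segments, and these held 39.1% of counts. Clonotype 9, which is not in-frame, held 21.1% of the counts of WT replicate 4 and 0 to 2.86% in the other 9 samples.

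**Figure D5:**
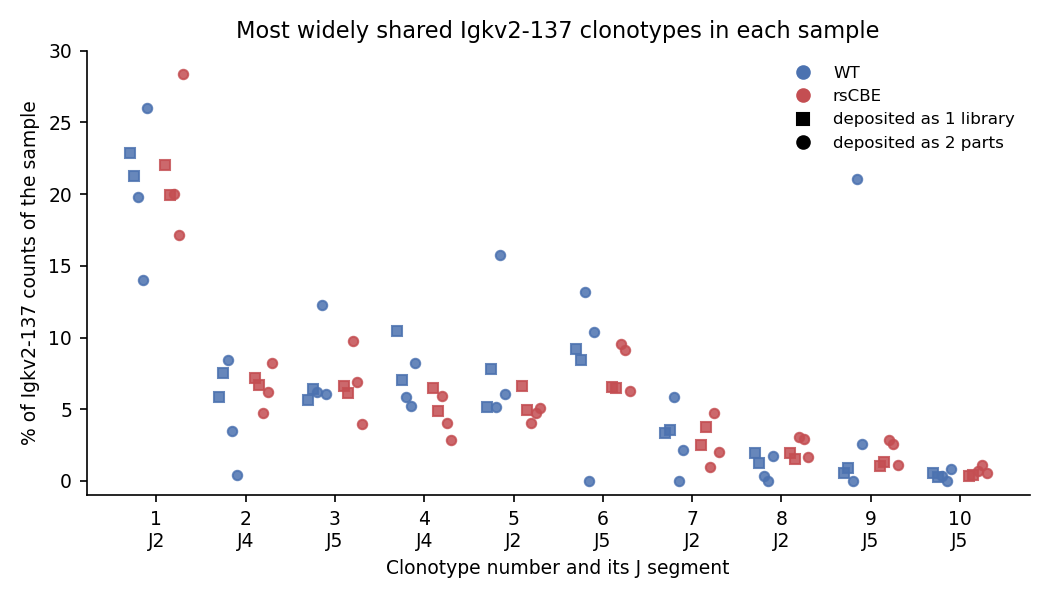
Share of the Igkv2-137 counts of each sample (y axis, %) held by the 10 most widely shared clonotypes (x axis, with the J segment of each), WT in blue and rsCBE in red, squares for 1 library and circles for 2 parts. Clonotype 1 lay between 14.0 and 28.4% in every sample, and clonotype 9 reached 21.1% only in WT replicate 4.

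In the 27-base CDR3s of Igkv2-137 the residue at position 8 lies at or next to the join. In clonotypes 1, 2 and 6, where the V segment kept 20 bases, its codon comes from the J segment, in clonotypes 3 and 5 it holds bases of both segments, and in clonotype 4 it could come from either the J segment alone or both. Among the 3097 in-frame counts with 27 bases and the first 15 germline bases, that residue was phenylalanine in 42.9%, tyrosine in 41.1%, leucine in 14.8% and tryptophan in 1.03%. All 1272 tyrosine counts were J2 joins and all 32 tryptophan counts were J1 joins, while 432 of 457 leucine counts were J5 joins. Phenylalanine came from J4 (669 counts), J5 (346) and J2 (314). Phenylalanine had means of 46.3% ± 13.9 and 41.5% ± 4.36 in the WT and rsCBE samples (SD, n = 5), and tyrosine of 38.4% ± 5.20 and 42.6% ± 5.97. Both differences were smaller than the SD of the WT samples.

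Sharing was uneven. Of the 705 distinct clonotypes, 5 were found in all 10 samples and held 46.8% of counts, and 550 (78.0%) were found in 1 sample and held 11.5%. WT samples held 332 and rsCBE samples 498 distinct clonotypes, and 125 were found in both, which is 37.7% of those of WT and 25.1% of those of rsCBE. These 125 carried 88.4% of the WT and 85.3% of the rsCBE counts. Mean counts of this V segment per sample were 381 ± 288 in WT and 633 ± 396 in rsCBE (SD, n = 5). The part of this depth in the numbers of clonotypes and in their overlap was not tested. Sharing was not compared with that of other V segments, so it cannot be called particular to this one. Where a sample had 2 parts, 67.4 to 89.5% of the clonotypes in its smaller part were also in the other. Many rare clonotypes departed from the germline early: 429 of 1157 clonotypes, each counted once in each sample that held it (37.1%), differed from it within the first 15 bases. Of these, 409 had 1 count, and together they held 8.88% of counts. For 177 of the 429 the difference was not a single changed base, and V ends cut back further were not told apart from changed bases. Among clonotypes with at most 3 differing bases the commonest changes, with positions counted from 1 at the first base of CDR3 and the germline base first, were C7A with 39 counts, C10A with 38 and A6G with 37. Whether such changes arose in the cells or in library making and reading was not tested.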

How the data were processed

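RNA amplicon libraries of the kappa repertoire were analysed for 5 WT and 5 rsCBE samples. The authors deposited raw whole-number counts per line of V call, J call and CDR3, per the file headers; the caller and what 1 count stands for (read pair or molecule) are not given in the sources used here, and the submitters' processing notes name mm10. Counts were therefore not treated as independent molecules, and intervals and limits for a count of 0 (3 counts of the total) cover counting error only. All 49079 lines of 16 libraries were read, 49 duplicate lines were merged and parts a and b were added. Total counts were 3109 to 24083 per sample. Both reads had 1 V call on every line.

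V segment counts were tested with edgeR 4.0.16 (quasi-likelihood, library sizes alone as scaling, filterByExpr, Benjamini-Hochberg; R 4.3.3), with DESeq2 1.42.0 as an alternative, and the model was tested on simulated data. In-frame share and CDR3 length were tested by exact permutation (SciPy 1.17.1) over samples, 4 tests as a family. Germline bases came from GENCODE M21 transcripts. V segments were named as the 6 nearest by number, the Igkv2 family, the 3 most alike in share and the 3 in J profile, and clonotypes as the 10 found in most samples, ties by counts. The segment, the lists and the tests were chosen with earlier results of these data known.

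Same-numbered samples of both genotypes deviated together from their group means (r = 0.453 to 0.877 over 66 V segments); with the means of group and form removed, r was -0.25 to 0.18.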

Additional observations from a re-analysis of the deposited data

Results flagged for a closer look

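In WT replicate 4 the in-frame share of Igkv2-137 was 61.4%, far below the 74.0 to 76.9% of the other WT samples. In the same sample 56.1% of counts had a CDR3 of 27 bases, against 71.3 to 72.5% in the other WT samples. This sample has 57 counts of Igkv2-137, of which clonotype 9, an out-of-frame join with 25 bases, held 21.1%. In rsCBE replicate 1, 67.8% of counts had a CDR3 of 27 bases, above the 58.8 to 61.4% of the other rsCBE samples; it is the sample with the most counts of Igkv2-137. Each was the highest or lowest sample of its group by a gap that exceeds Dixon's 95% critical value, which chance gives in about 1 in 20 groups, or 0.9 of the 18 groups looked at.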

How the results depend on the processing

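The share of Igkv2-137 kept its direction and its side of the threshold in all 21 alternatives for genotype (log2 fold change 0.18 to 0.55) and all 15 for form of deposition (-0.85 to -0.57). The genotype difference in length kept both in all 18 but ranged from -0.39 bases (each clonotype counted once) to -0.015 (samples deposited as 1 library). The in-frame share against other V segments became -1.24 points with each clonotype counted once, and the genotype difference in in-frame share -10.4 points. Leaving out single samples gave 2.05 to 3.18 points for that comparison and -8.20 to -4.32 points between the genotypes, and both passed the threshold only without WT replicate 4. The length against other V segments stayed positive but missed the threshold with the replicate block (0.400 bases), in samples deposited as 1 library (0.371) and in those deposited as 2 parts (0.419); these tests have 5, 4 and 6 units, which limits the p they can reach. The replicate block changed no other call for Igkv2-137. Using only clonotypes with intact first 15 bases, chosen after seeing the data, changed no call. Among the untested J differences, J4 moved to -4.38 points with each clonotype counted once, and among joins that were not in-frame J1 moved to -3.20 and J2 to 10.7 points. In the samples deposited as 1 library J1 was -1.41 points, with means of 3.39% in WT and 1.98% in rsCBE. With the counts of each genotype summed it was -0.91 points. The cause of these J differences was not tested. The directions of the J differences were not stable. With each clonotype counted once, J5 turned to 2.25 and J1 to 0.80 points. In the samples deposited as 1 library, J2 turned to -0.32, J4 to 0.49 and J5 to 1.24 points. J1 turned to 0.67 points in those deposited as 2 parts and to 0.68 points in in-frame joins. J1 and J5 also turned when some single samples were left out. WT replicate 4, with 57 counts, limits every value it enters.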
